A study of Mus musculus with 2 samples.

Results

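The replication-dependent histone genes are the members of the clustered histone gene families of the mouse, taken here as every gene whose symbol begins with Hist1h, Hist2h, Hist3h or Hist4h. There were 67 of them among the 31053 genes of the count matrices, and they divide into 6 H1, 18 H2A, 18 H2B, 12 H3 and 13 H4 genes. They were followed in 2 single-cell RNA libraries of CD24+ γδ T cells, the immature γδ T cells of the thymus. The cells came from wild-type C57BL/6 mouse embryos at embryonic day 15, whose thymic lobes were kept for 2 days in untreated culture. Cells were stained with TMRE, a dye that gathers in mitochondria with a high membrane potential, and sorted into a bright fraction, TMREhi, and a dim fraction, TMRElo. Each fraction gave 1 library, so the 2 groups share genotype, strain, age and culture, no comparison has a replicate, and no test between groups was possible. How many embryos gave each library is not stated in the labels.

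Histone proteins package DNA. H2A, H2B, H3 and H4 build the core of the nucleosome, and H1 binds the linker DNA between cores. Most of their mRNAs are made while a cell copies its DNA, and they are the metazoan mRNAs known for ending in a conserved stem-loop, bound by SLBP, where other mRNAs carry a poly(A) tail. A library primed with oligo-dT therefore records them through poly(A)-tailed forms or through runs of A inside the transcript, and a UMI count for such a gene need not stand in proportion to its mRNA.

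The stem-loop letters were not found in the annotated transcripts of 34 of the 67 members (GENCODE vM21, GRCm38). Of these 34, 14 have annotated transcripts of at most 430 bases. Whether a transcript is annotated as far as its stem-loop was not tested, and a stem-loop with other letters would not be matched. A missing match therefore does not show that a gene lacks a stem-loop. The letters were found in the annotated transcripts of the other 33 members. Of the 32 with a single exon, 25 carried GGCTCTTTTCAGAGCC and 7, all H4 genes, carried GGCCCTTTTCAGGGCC. The 12 bases before the stem-loop are shown because they differ among the members in their number of A, between 3 and 12 with a median of 6. Each line gives those 12 bases, the stem-loop in capitals and the 2 bases after it, 5′ to 3′ on the strand of the gene.
Hist1h2ap: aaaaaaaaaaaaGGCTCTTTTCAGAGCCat
Hist1h2ae: aaaaaaaacaaaGGCTCTTTTCAGAGCCat
Hist1h2ab: aaccaaaacaaaGGCTCTTTTCAGAGCCac
Hist1h1e: caacaacccaaaGGCTCTTTTCAGAGCCac
Hist1h2bj: accaaatccaaaGGCTCTTTTCAGAGCCac
Hist1h3a: gaattaaccaaaGGCTCTTTTCAGAGCCac
Hist1h4d: ccaaaaaccaaaGGCCCTTTTCAGGGCCac
The 16 capital letters lie at chr13:21833029-21833044 for Hist1h2ap, chr13:23570668-23570683 for Hist1h2ae, chr13:23621782-23621797 for Hist1h1e and chr13:23761890-23761905 for Hist1h3a, all on the minus strand. On the plus strand they lie at chr13:23751572-23751587 for Hist1h2ab, chr13:22043638-22043653 for Hist1h2bj and chr13:23581950-23581965 for Hist1h4d. Hist1h2ap has A at all 12 places and Hist1h2ae at 11. These are also the 2 members with the most UMIs, as given below. Hist1h2ao has the same 12 A, and 6 of its UMIs were found over all TMREhi barcodes. Across the 32 members, which share 1 library and its depth, the number of A and the UMI count had a Spearman rho of 0.48.

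Near-identical copies limit what a count of 1 member means. Only 6.93% of the 50-base stretches of the Hist1h2ap transcript were found in no other gene, and its other stretches occur in up to 24 genes. Hist1h2ao is as little unique, at 6.50%. The median over members was 50.5%, and 32 members were below 50%, so how reads were divided between copies is uncertain for these. Hist1h1b, at 100%, and Hist1h4d, at 89.8%, shared few stretches or none over the whole transcript. The Hist1h4d transcript is annotated for 770 bases past the stem-loop, and 11 genes share stretches with it. The libraries came from a 5′ kit, and uniqueness near the 5′ end was not measured. How reads of Hist1h4d were divided is therefore uncertain as well.

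RefSeq promoter sequence (GRCm38.p6) was matched for 62 of the 67 members. In the 250 bases before the start, on either strand, the CCAAT box letters CCAAT were present in 51 members, but in 3 of 12 H4 genes, against 33.8% of all 32851 promoters, and the TATA box letters TATAAA in 29 members against 12.4%. The octamer ATTTGCAT, the recognition letters of POU factors, was present in 13 members, 7 H2A and 6 H2B genes, against 1.60% of all promoters. Some H2A and H2B genes, such as Hist1h2ae and Hist1h2bg, have overlapping promoter windows on opposite strands, so a site can count for both genes. The 13 are therefore not all separate sites. The H1 box letters AAACACA were present in 5 of 6 H1 genes and in 9 members in all, against 6.25%. The last 120 bases before the start are printed for the leading gene of 4 classes and for a second H1 gene, to show how the classes differ in these letters, which stand in capitals on the strand shown or as the reverse complement.
Hist1h1b: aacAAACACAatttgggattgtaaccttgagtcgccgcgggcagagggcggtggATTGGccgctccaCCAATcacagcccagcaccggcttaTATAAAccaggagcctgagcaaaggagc
Hist1h1e: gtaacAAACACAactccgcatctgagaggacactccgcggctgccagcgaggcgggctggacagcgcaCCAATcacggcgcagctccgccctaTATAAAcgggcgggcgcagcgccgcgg
Hist1h2ap: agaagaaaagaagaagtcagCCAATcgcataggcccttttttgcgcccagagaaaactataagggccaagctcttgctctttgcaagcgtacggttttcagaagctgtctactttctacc
Hist1h2bj: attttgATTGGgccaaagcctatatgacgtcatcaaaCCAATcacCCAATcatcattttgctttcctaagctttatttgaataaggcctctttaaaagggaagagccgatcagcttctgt
Hist1h4d: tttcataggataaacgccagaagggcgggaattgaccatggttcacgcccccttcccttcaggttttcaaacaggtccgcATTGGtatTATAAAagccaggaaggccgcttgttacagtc
They lie on GRCm38.p6 at chr13:21780626-21780745 (minus) for Hist1h1b, chr13:23622559-23622678 (minus) for Hist1h1e, chr13:21833476-21833595 (minus) for Hist1h2ap, chr13:22043078-22043197 (plus) for Hist1h2bj and chr13:23581448-23581567 (plus) for Hist1h4d. Both H1 promoters hold the H1 box, the CCAAT box and the TATA box in that order. A match describes letters only, not a bound site. The starts are those of RefSeq, and that of Hist1h2ap lies 32 bases inside its GENCODE transcript. The last 32 bases printed for Hist1h2ap therefore belong to that transcript.

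Barcodes with at least 500 genes and at most 10% mitochondrial UMIs were retained, which gave 317 TMREhi barcodes with 2905666 UMIs (median 7465) and 34 TMRElo barcodes with 105080 UMIs (median 1679). The 2 libraries shared 0 barcodes. All 6 markers found of a γδ T cell list (Trdc, Sox13, Tcf7, Cd3d, Cd3e and Cd3g) had UMIs in both libraries. They summed to 3100 CPM in TMREhi and 4378 CPM in TMRElo, where CPM is UMIs per 1000000 UMIs of the same barcodes. Trgc1, Trgc2 and Trgc4 of that list were not found under those symbols. The CD3 genes and Tcf7 are not particular to γδ cells. Trdc, a gene of the TCR δ chain, stood at 319 CPM in TMREhi and 561 CPM in TMRElo. Markers of αβ-lineage thymocytes summed to 302 CPM in TMREhi (7 of 7 with a UMI) and 199.8 CPM in TMRElo (3 of 7, with Rag1, Rag2, Cd4 and Ptcra at 0). Of 6 erythroid genes, 0 had a UMI in either library, and of 5 B cell genes 1 had. A barcode was called cycling when it held a UMI of Mki67 or Top2a, and low-ribosomal when under 15% of its UMIs came from ribosomal protein genes. Intervals are exact 95% intervals for counting error only, and leave out variation between animals, sorts and cells.

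The TMRElo total rests on few barcodes. A pair of TMRElo barcodes held 392 and 260 of the 687 retained histone UMIs, or 94.9%, among 8384 and 11730 UMIs of all genes. Both were cycling, with 32 and 36 UMIs of Mki67 and Top2a together, and both held Trdc (7 and 3 UMIs), the constant gene of the TCR δ chain. The other 32 retained TMRElo barcodes held 35 histone UMIs. In TMREhi the 2 barcodes with most histone UMIs held 918 of 16935, or 5.42%. Summed levels and class shares of retained TMRElo barcodes are given with and without these barcodes, and the counts of single members there include them.

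In retained TMREhi barcodes the histone members held 16935 UMIs, and 61 of 67 members had at least 1 UMI. In TMRElo they held 687 UMIs from 48 members. The 6 members at 0 in both libraries, also over all deposited barcodes, were Hist1h1t, Hist1h2aa and Hist1h2ba, which are known as testis histone genes, and Hist2h2aa2, Hist1h2bq and Hist2h3c2. The Hist1 cluster on chromosome 13, with 54 members, held 96.3% of the histone UMIs in TMREhi and 95.9% in TMRElo. The Hist2 cluster on chromosome 3, with 10 members, held 3.14% in TMREhi and 3.06% in TMRElo. Without the 2 barcodes with most histone UMIs in each library, 61 members had a UMI in TMREhi and 16 in TMRElo, and the Hist1 share was 96.2% in TMREhi and 85.7% (69.7 to 95.2) in TMRElo. The named members below are the 49 with at least 20 UMIs over both libraries.

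H2A genes made up most of the signal. Their share of the histone UMIs was 62.5% (61.8 to 63.3) in TMREhi and 68.3% (64.6 to 71.7) in TMRElo. UMIs count captured molecules and carry no scaling by transcript length, so these are shares of captured molecules. H1 genes held 17.1% in TMREhi and 19.1% in TMRElo. H2B held 7.53% in TMREhi and 4.95% in TMRElo, H4 held 6.88% in TMREhi and 5.09% in TMRElo, and H3 held 5.95% in TMREhi and 2.62% in TMRElo. Without the 2 barcodes with most histone UMIs in each library, H2A held 63.1% in TMREhi and 42.9% (26.3 to 60.6) in TMRElo, and H1 held 16.1% and 34.3% (19.1 to 52.2) in that order, from 16017 and 35 histone UMIs. The nucleosome takes up the 4 core histones in equal numbers, and the UMI shares of their genes were not equal.

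Hist1h2ap alone held 40.6% of the histone UMIs in TMREhi (6876 UMIs) and 49.1% in TMRElo (337 UMIs). Hist1h2ae followed with 12.1% in TMREhi (2051 UMIs) and 7.86% in TMRElo (54 UMIs). In TMRElo 180 and 148 of the 337 Hist1h2ap UMIs came from the pair of barcodes, and without the top 2 barcodes of each library Hist1h2ap held 41.3% in TMREhi and 25.7% (12.5 to 43.3) in TMRElo, where 9 UMIs remained. Both encode canonical H2A proteins and are the 2 members with the longest A stretches in the sequences above. The leading H1 gene was Hist1h1b, with 1107 UMIs in TMREhi and 32 in TMRElo, and the leading H4 gene was Hist1h4d, with 420 and 10 UMIs in the same order of libraries. Hist1h2bj led the H2B genes with 358 UMIs in TMREhi and 8 in TMRElo, and Hist1h3e led the H3 genes with 272 UMIs in TMREhi and 4 in TMRElo. The 10 members with most UMIs held 77.0% of the TMREhi histone UMIs, and 26 members had between 20 and 100 UMIs there.

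Cycling barcodes held nearly all histone UMIs of TMREhi. There were 177 cycling barcodes among 317 (55.8%, 50.2 to 61.4), and they held 98.1% of the histone UMIs against 79.2% of all UMIs. The summed histone level was 7224 CPM in cycling and 524 CPM in non-cycling TMREhi barcodes, a ratio of 13.8 (12.3 to 15.5). H2A differed most, at 4559 CPM in cycling and 166.8 CPM in non-cycling barcodes (27.3-fold, 22.5 to 33.6). H1 genes were 8.60-fold higher (6.94 to 10.8), H3 8.03-fold (5.65 to 11.8), H2B 7.92-fold (5.80 to 11.1) and H4 5.12-fold (3.92 to 6.80). Without Hist1h2ap and Hist1h2ae the H2A ratio was 10.95 (7.98 to 15.5) and the ratio over all members was 8.001 (7.06 to 9.10).

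Cycling barcodes were also deeper, with a median of 13362 UMIs against 4244.5 UMIs in non-cycling barcodes, and a deep barcode is more likely to show an Mki67 or Top2a UMI. At least 1 histone UMI was present in 99.4% of cycling and 85.0% of non-cycling TMREhi barcodes at these depths. When each barcode was thinned to 2000 UMIs before it was classed, 126 cycling and 140 non-cycling barcodes remained, and 51 of the 317 were too shallow. The share with a histone UMI was then 94.4% (88.9 to 97.7) in cycling and 65.7% (57.2 to 73.5) in non-cycling barcodes, and the mean histone count was 16.05 and 2.02 UMIs in the same order, a ratio of 7.94. An H2A UMI was present in 86.5% of cycling and 34.3% of non-cycling thinned barcodes. The shares for H1 were 72.2% and 30.0% in that order, for H2B 57.9% and 18.6%, for H4 54.0% and 15.0% and for H3 46.8% and 17.1%. At 1000 UMIs the means were 8.10 in cycling and 1.37 in non-cycling barcodes, a ratio of 5.91. The αβ-lineage markers summed to 274.7 CPM in cycling and 405 CPM in non-cycling barcodes (7 of 7 with a UMI in both), and the myeloid markers to 5.65 CPM (4 of 7, with H2-Aa, Itgax and Siglech at 0) and 334 CPM (5 of 7, with H2-Aa and Siglech at 0) in that order. Their part in the histone ratio was not tested, and without barcodes that held a Rag1 UMI the ratio was 14.8. Free RNA was not measured here, and its part in the level of non-cycling barcodes was not tested.

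Of the 67 members, 40 reached a mean of 10 CPM over cycling and non-cycling TMREhi barcodes, a filter that the cycling level alone could pass. All 40 of these were higher in cycling barcodes, where 43.5% of the 7530 genes tested were higher. At least 2-fold higher were 39 members and 8.46% of all genes, on the scale of log2(CPM + 1). The median log2 difference was 2.93 over these members and -0.11 over all genes. No support is drawn from the count, because of the filter.

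**Figure D1:**
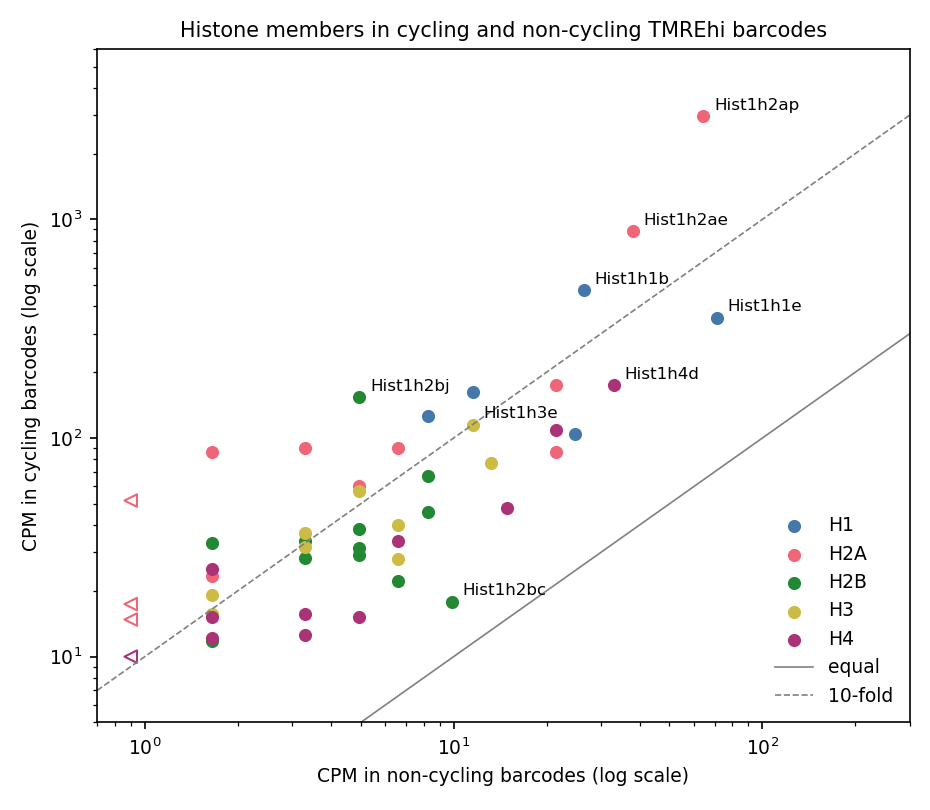
Level of each of the 49 members with at least 20 UMIs in retained TMREhi barcodes, in cycling barcodes (vertical) against non-cycling barcodes (horizontal), in CPM on log scales. Points are coloured by class, the solid line marks equal levels and the dashed line a 10-fold higher level, and the 4 open triangles at the left edge had 0 UMIs in non-cycling barcodes. Hist1h2ap lies above the dashed line and Hist1h2bc nearest the solid line.

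Among H2A genes, Hist1h2ap stood at 2972 CPM in cycling and 64.4 CPM in non-cycling TMREhi barcodes (46.1-fold, 33.7 to 64.9). Hist1h2ae stood at 882 and 38.0 CPM in the same order (23.2-fold, 15.4 to 36.7). Hist1h2ab, the next most counted H2A gene, stood at 174.8 and 21.5 CPM (8.14-fold, 4.70 to 15.4). The interval of Hist1h2ab lay below that of Hist1h2ap. Hist1h2af had 119 UMIs in cycling and 0 in non-cycling barcodes, at least 10.4-fold higher when 3 UMIs are taken as the floor of the non-cycling set. Hist2h2ac differed least of the H2A genes with at least 20 UMIs, at 86.1 CPM in cycling and 21.5 CPM in non-cycling barcodes (4.01-fold, 2.29 to 7.66).

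The H1 genes, which encode the linker histones, differed in the size of the ratio. Hist1h1b stood at 474 CPM in cycling and 26.4 CPM in non-cycling barcodes (17.9-fold, 11 to 31.5), and Hist1h1a and Hist1h1d were 15.3-fold (6.47 to 47.4) and 14.1-fold higher (6.78 to 35.3). Hist1h1e stood at 355 CPM in cycling and 71.0 CPM in non-cycling barcodes (5.0-fold, 3.68 to 6.96). Hist1h1c stood at 103.9 and 24.8 CPM in that order (4.19-fold, 2.49 to 7.61). The intervals of Hist1h1e and Hist1h1c lay below that of Hist1h1b and overlapped those of Hist1h1a and Hist1h1d. In non-cycling TMREhi barcodes Hist1h1e, at 43 UMIs, was the member with most UMIs, ahead of Hist1h2ap with 39.

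Hist1h2bj led the H2B genes at 154.3 CPM in cycling and 4.96 CPM in non-cycling barcodes (31.1-fold, 10.6 to 152), with 3 UMIs behind the non-cycling level. Hist1h2bc was the nearest to equal levels of the 49 members with at least 20 UMIs, at 17.8 CPM in cycling and 9.91 CPM in non-cycling barcodes (1.80-fold, 0.759 to 5.18), and its interval includes 1. The leading H3 gene, Hist1h3e, stood at 115.2 and 11.6 CPM (9.96-fold, 4.77 to 25.02). The leading H4 gene, Hist1h4d, stood at 173.9 and 33.04 CPM (5.26-fold, 3.36 to 8.71). Hist1h4h, at 47.8 and 14.9 CPM (3.22-fold, 1.63 to 7.22), and Hist1h4i, at 108.2 and 21.5 CPM (5.04-fold, 2.89 to 9.60), were next among the H4 genes by UMIs. Of the 49 members, Hist1h2bc, Hist1h4k (3.07-fold, 0.968 to 15.6) and Hist1h4n (3.82-fold, 0.965 to 33.002) had intervals that include 1. The ratio of the H3 genes with at least 20 UMIs lay between 4.21 for Hist1h3b and 11.6 for Hist1h3a and Hist2h3b, the narrowest range of the 5 classes. The make-up of the histone UMIs differed with these ratios: H2A held 63.1% in cycling and 31.9% (26.8 to 37.3) in non-cycling barcodes, H1 held 16.9% and 27.1%, and H4 held 6.67% and 18.0%.

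Within the cycling barcodes the histone level varied widely. The median was 63.8 histone UMIs per 10000 UMIs in cycling TMREhi barcodes, with a lower quartile of 9.91 and a highest value of 310, against a median of 5.01 and a highest value of 60.9 in non-cycling barcodes. Of 177 cycling barcodes 95 were above 50 per 10000, and 1 of 140 non-cycling barcodes was. The 50 barcodes with most histone UMIs held 68.3% of the TMREhi total. In TMRElo the 5 cycling barcodes stood at 18655 CPM and the 29 non-cycling ones at 443 CPM (42.1-fold, 29.4 to 62.4), and without the pair named above the other 3 cycling barcodes stood at 266 CPM from 4 UMIs.

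**Figure D2:**
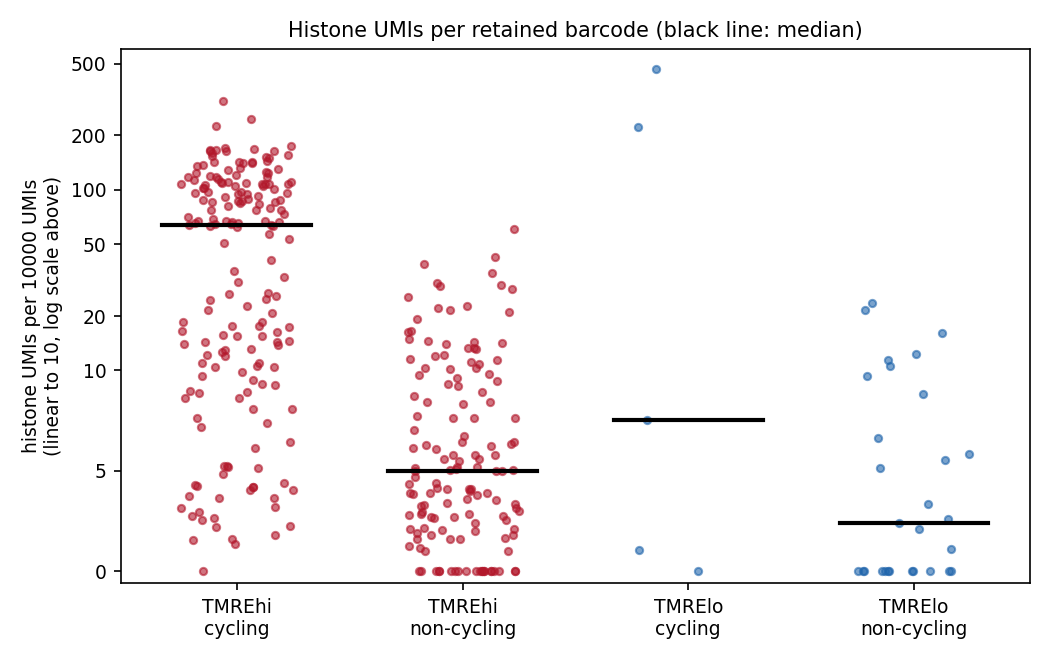
Histone UMIs per 10000 UMIs in each retained barcode (vertical, linear to 10 and log scale above), by library and cycling state, with the median as a black line. Cycling TMREhi barcodes have a median of 63.8 against 5.01 in non-cycling ones, and 2 of 5 cycling TMRElo barcodes lie at 468 and 222.

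Histone counts were set against 2 gene lists, 31 S phase and 28 G2 and M phase genes, in the 266 TMREhi barcodes thinned to 2000 UMIs. Barcodes with at least 6 UMIs of the G2 and M list held a mean of 16.5 histone UMIs (126 barcodes). Those with 3 to 5 such UMIs held 3.11 (38 barcodes), those with 1 to 2 held 1.14 (64 barcodes) and those with 0 held 0.868 (38 barcodes). Barcodes with at least 6 UMIs of the S list held 18.4 histone UMIs on average when they also had at least 6 G2 and M UMIs (80 barcodes), 4.4 with 3 to 5 (20 barcodes) and 2.44 with 1 to 2 (9 barcodes). With 1 to 2 S UMIs and at least 6 G2 and M UMIs the mean was 10.6 (22 barcodes). Across the 266 barcodes, which share 1 library and 1 thinned depth, Spearman's rho of the histone count was 0.74 with the G2 and M list and 0.50 with the S list. Between classes it ran from 0.33 for H3 and H4 to 0.67 for H1 and H2A. The G2 and M list holds Mki67 and Top2a, which define the cycling state. The 266 barcodes include 140 non-cycling ones. These values thus also separate cycling from non-cycling barcodes, and they do not place the histone UMIs in a phase.

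**Figure D3:**
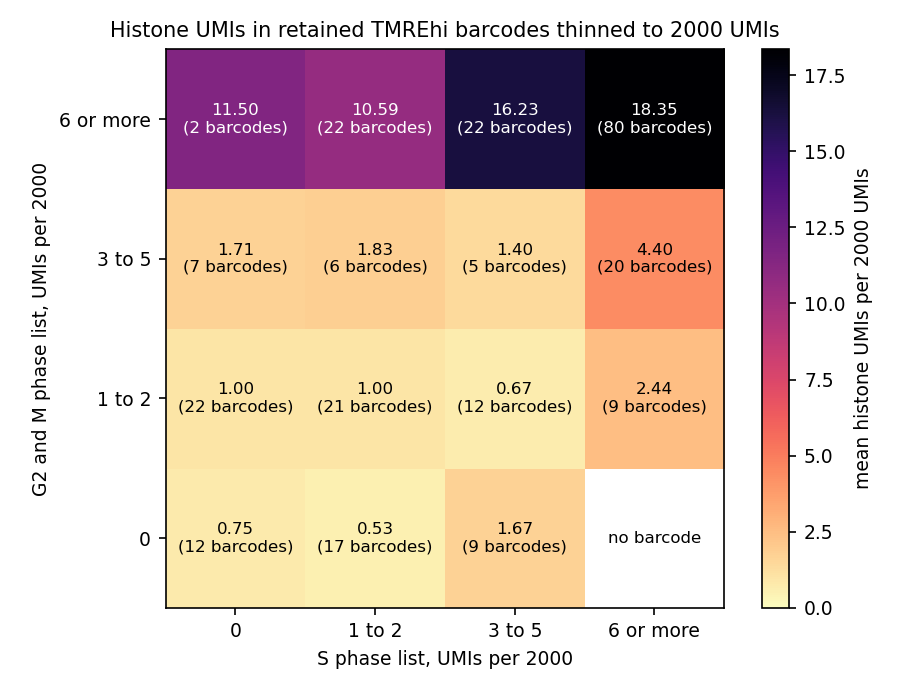
Mean histone UMIs per barcode in TMREhi barcodes thinned to 2000 UMIs, by the UMIs of the S phase list (horizontal) and of the G2 and M phase list (vertical), with the number of barcodes in each cell. The upper row, with at least 6 G2 and M UMIs, holds the highest means, up to 18.35.

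Genes that work with the histone mRNAs and proteins were higher in part in cycling TMREhi barcodes. Of 11 replication-independent histone variants, most of which have poly(A)-tailed mRNAs, 10 were compared and 10 were higher in cycling barcodes, 5 of them at least 2-fold, with a median log2 difference of 1.05. As with the members, these lists passed the filter of 10 CPM on the mean, and over all genes 43.5% were higher and 8.46% at least 2-fold higher. H2afx, the variant phosphorylated at DNA breaks, stood at 549.5 CPM in cycling and 56.2 CPM in non-cycling barcodes (9.78-fold, 6.96 to 14.2), and H2afz was 3.25-fold higher (2.98 to 3.56). H3f3a, a gene of the H3.3 variant, was 1.45-fold higher (1.34 to 1.57). Of 17 genes of histone mRNA synthesis and 3′ processing, 16 were compared, 12 higher and 4 lower, with a median of 0.34. Slbp, the stem-loop binding protein, stood at 247.8 CPM in cycling and 112.3 CPM in non-cycling barcodes (2.21-fold, 1.71 to 2.88). Casp8ap2, a factor of histone mRNA 3′ processing, stood at 99.1 and 84.2 CPM in that order (1.18, 0.865 to 1.63), and its interval includes 1. Of 19 chaperones and deposition factors 17 were compared and 17 were higher, 10 at least 2-fold, among them Anp32e, a chaperone of the variant H2A.Z (3.37-fold, 2.77 to 4.14), and Nap1l1, a chaperone of H2A and H2B (2.10-fold, 1.79 to 2.48). All 31 S phase genes, a list that shares Slbp, Mcm2 and Chaf1b with the other lists, were higher, with a median of 1.69. Differences between these lists and the members were not tested.

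The same split was also made within the ribosomal classes of TMREhi. Before thinning it was smaller in low-ribosomal barcodes. Their cycling barcodes stood at 5118 CPM and their non-cycling ones at 1022 CPM (5.01-fold, 4.57 to 5.50), and in high-ribosomal barcodes the levels were 7163 and 486 CPM in that order (14.7-fold, 13.1 to 16.6). Of 42 members compared in low-ribosomal barcodes 42 were at least 2-fold higher in cycling ones, where 8.95% of all genes were. In high-ribosomal barcodes 39 of 40 were, where 8.81% of all genes were. Here too the cycling level alone could pass the filter, so no support is drawn from these counts. At 2000 UMIs a barcode, low-ribosomal means were 11.7 UMIs in 189 cycling and 2.08 UMIs in 51 non-cycling barcodes, and high-ribosomal means were 15.5 UMIs in 129 cycling and 2.05 UMIs in 149 non-cycling barcodes. At 1000 UMIs they were 5.53 UMIs in cycling and 1.01 UMIs in non-cycling low-ribosomal barcodes, and 7.78 UMIs in cycling and 1.31 UMIs in non-cycling high-ribosomal barcodes, so most of the difference between the ribosomal classes was not seen at that depth.

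TMREhi and TMRElo did not differ in a stable direction in retained barcodes. The histone level was 5828 CPM (5741 to 5917) in TMREhi and 6538 CPM (6058 to 7046) in TMRElo, a ratio of 0.891 (0.826 to 0.964). Without the 2 barcodes with most histone UMIs in each library, the levels were 5617 CPM in TMREhi and 412 CPM in TMRElo, a ratio of 13.6 (9.80 to 19.6). Without 1 such barcode in each library the ratio was 1.88. Leaving barcodes out for their histone UMIs itself lowers the TMRElo level, so these ratios support no direction. Over all deposited barcodes, 1202 in TMREhi and 196 in TMRElo, it was 1.60 (1.49 to 1.72).

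By class, with all retained barcodes, H3 was higher in TMREhi (2.03-fold, 1.27 to 3.43), at 347 CPM against 171.3 CPM in TMRElo from 18 UMIs. H2A stood at 3644 CPM in TMREhi and 4463 CPM in TMRElo (0.817, 0.744 to 0.898), and H1 at 997 CPM in TMREhi and 1247 CPM in TMRElo (0.800, 0.671 to 0.961). H2B and H4 had ratios of 1.36 (0.965 to 1.97) and 1.20 (0.860 to 1.74), whose intervals include 1. Without the 2 barcodes with most histone UMIs, H2A was 20.1-fold and H1 6.40-fold higher in TMREhi. That choice itself lowers the classes in TMRElo, so these values support no direction.

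At a mean of 10 CPM, 45 members were compared between the libraries. Of these, 24 were higher in TMREhi, where 38.1% of the 7802 genes tested were. At least 2-fold higher were 12 members and 10.0% of all genes, and at least 2-fold lower were 9 members and 29.9% of all genes. Hist1h2ap stood at 2366 CPM in TMREhi and 3207 CPM in TMRElo (0.738, 0.661 to 0.826), and Hist1h1d at 131.5 CPM in TMREhi and 285.5 CPM in TMRElo (0.460, 0.317 to 0.692). Hist1h2ae stood at 706 CPM in TMREhi and 514 CPM in TMRElo (1.37, 1.05 to 1.83). Hist1h3c had 184 UMIs in TMREhi and 1 UMI in TMRElo (6.65-fold, 1.18 to 264). Without the 2 barcodes with most histone UMIs, 37 of 38 members compared were higher in TMREhi, where 38.0% of all genes were, and Hist1h2ap was 21.9-fold and Hist1h1d 3.38-fold higher. Those barcodes were left out for their histone UMIs, so the choice itself lowers the members in TMRElo, and the count supports no direction.

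The share of cycling barcodes differed between the libraries, at 177 of 317 retained barcodes in TMREhi (55.8%) and 5 of 34 in TMRElo (14.7%, 4.95 to 31.1). After thinning to 2000 UMIs it was 47.4% of 266 barcodes in TMREhi and 3 of 15 in TMRElo. Among non-cycling retained barcodes the histone level was 524 CPM in TMREhi and 443 CPM in TMRElo (1.18-fold, 0.815 to 1.77, from 317 and 31 UMIs), an interval that includes 1. Among cycling ones it was 7224 CPM in 177 TMREhi barcodes and 18655 CPM in 5 TMRElo barcodes, of which the pair named above held 652 of 656 histone UMIs.

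Low-ribosomal barcodes gave a further comparison, since the TMRElo pair, at 17.4% and 25.5% ribosomal UMIs, falls outside them. There were 733 such TMREhi barcodes, with a median depth of 1555 UMIs, and 117 such TMRElo barcodes, with a median depth of 1037 UMIs, most of them with over 10% mitochondrial UMIs (medians 16.9% and 14.4% in that order). The histone level was 3540 CPM in TMREhi and 585 CPM in TMRElo, a ratio of 6.05 (4.84 to 7.65). H4 was 9.14-fold higher in TMREhi (4.17 to 25.004), H2B 7.90-fold (4.13 to 17.3), H2A 7.30-fold (4.96 to 11.2), H3 4.97-fold (2.59 to 10.9) and H1 4.05-fold (2.80 to 6.07). At a limit of 20% ribosomal UMIs, where the TMRElo barcode with 392 histone UMIs falls among the low-ribosomal ones, the ratio was 1.10 (0.9999 to 1.21), and Hist1h2ap turned to 0.427. Without the 2 low-ribosomal barcodes with most histone UMIs in each library it was 8.98 (6.82 to 12.1), a choice made on the histone UMIs themselves.

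Of 37 members compared in low-ribosomal barcodes, 36 were higher in TMREhi, where 47.2% of all genes were, and 32 were at least 2-fold higher, where 15.8% of all genes were. The exception was Hist1h3d, with 12 UMIs in TMREhi and 2 in TMRElo (0.617, 0.137 to 5.68). The filter on the mean was passed by 37 of 67 members, and the TMREhi level alone could pass it. Of the 37, 13 had 0 UMIs in TMRElo. The median log2 difference was 2.97, and 1.38 with those 13 set at 3 UMIs. No support is drawn from the count, because of the filter. Hist1h2ap had 719 UMIs in TMREhi and 15 in TMRElo (4.93-fold, 2.97 to 8.85). Hist1h1b had 442 and 5 UMIs in that order of libraries (9.09-fold, 3.87 to 28.1), and Hist1h1e had 408 and 16 UMIs (2.62-fold, 1.60 to 4.63). Hist1h2ae was 11.3-fold higher (4.37 to 41.5). The H2B gene Hist1h2bj, with 149 UMIs in TMREhi, had 0 UMIs in TMRElo, and its level was at least 5.11-fold higher when 3 UMIs are taken for TMRElo. At 20% the direction of H2A and of Hist1h2ak, Hist1h1a and Hist1h1d turned as well.

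Cycling barcodes made up 351 of 733 low-ribosomal barcodes in TMREhi (47.9%) and 12 of 117 in TMRElo (10.3%). With each barcode thinned to 1000 UMIs these shares were 49.1% of 578 in TMREhi and 16.2% of 68 in TMRElo. The histone level of cycling low-ribosomal barcodes was 5118 CPM in TMREhi and 2401 CPM in TMRElo (2.13-fold, 1.59 to 2.94). A pair of the 12 TMRElo barcodes held 28 of their 44 histone UMIs, and without the top 2 barcodes of each library the levels were 5038 CPM in TMREhi and 1072 CPM in TMRElo. Among non-cycling ones it was 1022 CPM in TMREhi and 300.04 CPM in TMRElo (3.41-fold, 2.42 to 4.94). At 1000 UMIs a barcode the non-cycling means were 1.01 UMIs in 294 TMREhi and 0.281 UMIs in 57 TMRElo barcodes, and the cycling means 5.53 UMIs in 284 and 2.64 UMIs in 11 barcodes. Fewer cells in S phase and less histone mRNA per cell cannot be told apart in these sums.

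The αβ-lineage markers moved with this comparison. In low-ribosomal barcodes they summed to 1166 CPM in TMREhi (7 of 7 with a UMI) and 311 CPM in TMRElo (5 of 7, with Rag2 and Ptcra at 0), and Rag1 stood at 403 CPM in TMREhi and 7.41 CPM in TMRElo. The 6 γδ markers summed to 3164 CPM in TMREhi and 3297 CPM in TMRElo. Of these, Trdc stood at 464 CPM in TMREhi and 852 CPM in TMRElo. Without barcodes that held a Rag1 UMI the histone ratio was 5.12 (4.10 to 6.49), from 536 TMREhi and 116 TMRElo barcodes.

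**Figure D4:**
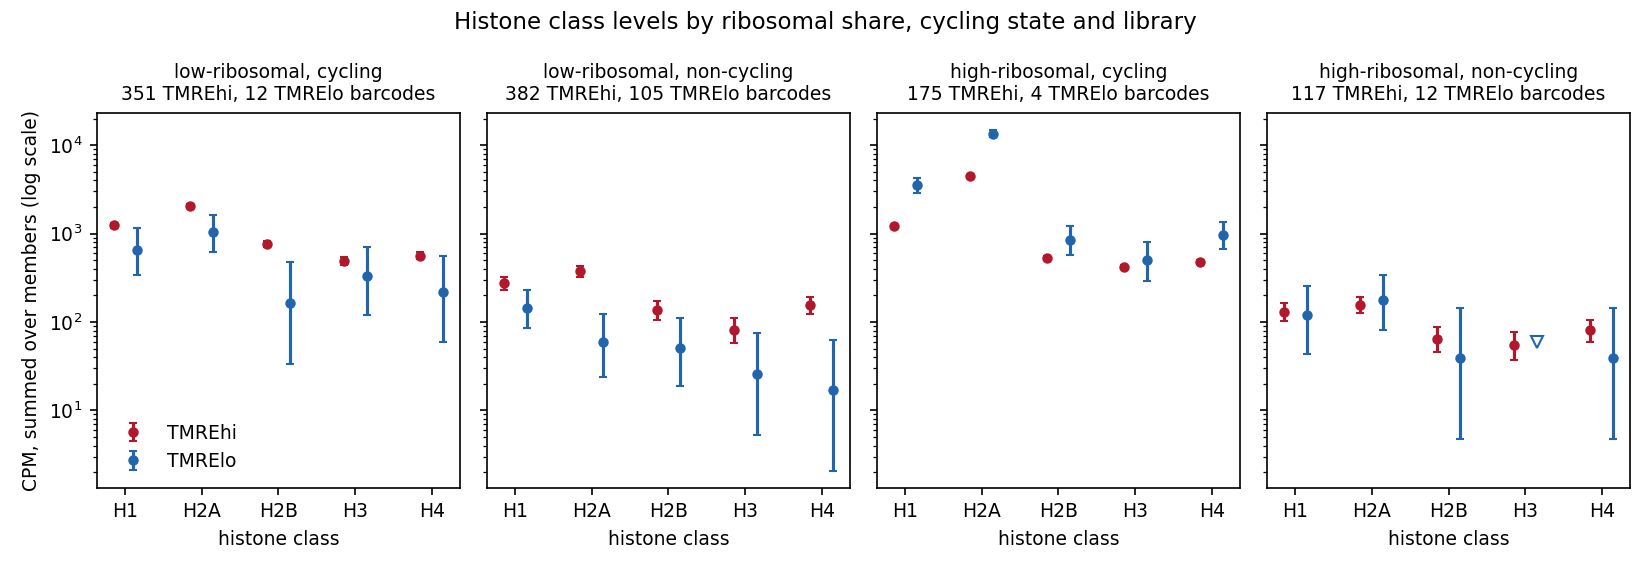
Summed level of each histone class, in CPM on a log scale (vertical), with exact 95% counting intervals, in TMREhi (red, left of each pair) and TMRElo (blue, right), by ribosomal share and cycling state. TMRElo lies below TMREhi for all 5 classes in both low-ribosomal panels, and the high TMRElo values in high-ribosomal cycling barcodes come from 4 barcodes, 2 of which hold 652 of their 656 histone UMIs. The open triangle marks 0 UMIs, drawn at the level of 3 UMIs.

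Ribosomal share divided the members of TMREhi unequally. The summed histone level was 3540 CPM in 733 low-ribosomal and 5776 CPM in 292 high-ribosomal TMREhi barcodes, a ratio of 0.613 (0.593 to 0.633), while the median gene was 0.85 higher in low-ribosomal barcodes on the log2 scale. H2A stood at 1406 CPM in low-ribosomal and 3621 CPM in high-ribosomal barcodes (0.388, 0.369 to 0.408). H2B ran the other way, at 526.5 and 433 CPM in that order (1.22, 1.11 to 1.34). H1 had a ratio of 0.887 (0.827 to 0.95), and H3 (0.964, 0.859 to 1.08) and H4 (1.02, 0.922 to 1.13) had intervals that include 1. Retained low-ribosomal barcodes alone turned H1 to 1.06.

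A pair of H2A genes carried the difference in summed CPM. Hist1h2ap stood at 547.8 CPM in low-ribosomal and 2356 CPM in high-ribosomal barcodes, which is 4.30-fold lower (3.98 to 4.65). Hist1h2ae stood at 333.7 and 700.3 CPM in that order, a ratio of 0.477 (0.429 to 0.529). Hist1h2ab, from the same class, was higher at 198.8 CPM in low-ribosomal and 140.3 CPM in high-ribosomal barcodes (1.42, 1.21 to 1.66). Without Hist1h2ap and Hist1h2ae the ratio over all members was 0.978 (0.939 to 1.02) and that of H2A was 0.929 (0.848 to 1.02). The median gene was 0.85 higher in low-ribosomal barcodes on the log2 scale, so the other members together still stood below it.

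Of 48 members compared between the ribosomal classes 19 were higher in low-ribosomal barcodes, where 72.2% of all genes were. On the scale of log2(CPM + 1), 0 of the same 48 were at least 2-fold higher in low-ribosomal barcodes, where 45.0% of the 8447 genes tested were, and 3 were at least 2-fold lower, where 10.7% of all genes were. The 3 were Hist1h2ap, Hist1h2ae and Hist2h4, an H4 gene at 9.14 CPM in low-ribosomal and 20.5 CPM in high-ribosomal barcodes (0.445, 0.218 to 0.836). Among the 49 members the highest ratios were those of the H2B genes Hist1h2bc (2.03, 1.31 to 3.16) and Hist1h2be (2.00, 1.40 to 2.86). Hist1h1e (1.07, 0.947 to 1.20), Hist1h4d (1.03, 0.866 to 1.23) and Hist1h2bj (0.935, 0.767 to 1.13) had intervals that include 1. The replication-independent variants stood lower as a list, 10 of 10 compared, with H2afz at 495 CPM in low-ribosomal and 2519 CPM in high-ribosomal barcodes (0.197, 0.181 to 0.213) and H3f3b at 1243 and 1599 CPM (0.778, 0.735 to 0.823).

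Among members with stem-loop letters and 20 UMIs or more, only Hist1h2ap and Hist1h2ae had at least 10 A in the 12 bases before them. In members without a match for the letters these bases were not read. Runs of A elsewhere in a transcript, such as 15 A in Hist1h2ac, were not counted. The ratios of the 23 other members with the stem-loop letters and at least 20 UMIs in these TMREhi barcodes, which have 9 A or fewer, lay between 0.541 and 1.86 with a median of 0.978. Over all 25 the Spearman rho of the number of A and the ratio was -0.08. Depth and mitochondrial share moved with the ribosomal classes, at medians of 1555 UMIs and 16.9% in low-ribosomal and 8356.5 UMIs and 3.55% in high-ribosomal barcodes, and αβ-lineage markers summed to 1166 CPM in low-ribosomal and 245 CPM in high-ribosomal barcodes (7 of 7 with a UMI in both). Their part in these ratios was not tested.

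Cycling state changed this picture in part. Among cycling TMREhi barcodes the low- over high-ribosomal ratio was 0.715 (0.690 to 0.739), with H2A at 0.453 (0.430 to 0.477) and H2B at 1.46 (1.32 to 1.61). Among non-cycling ones it was 2.10 (1.82 to 2.44), at 1022 CPM in low-ribosomal and 486 CPM in high-ribosomal barcodes. Thinning changes the depth and the cycling calls together, since barcodes that lose their Mki67 and Top2a UMIs become non-cycling. Thinned to 2000 UMIs, the non-cycling means were 2.08 UMIs in low-ribosomal and 2.05 UMIs in high-ribosomal barcodes, and the shares with a histone UMI 80.4% (66.9 to 90.2) and 67.1% (59.0 to 74.6) in that order. At 1000 UMIs the means were 1.01 and 1.31 UMIs and the shares 59.2% (53.3 to 64.9) and 44.9% (37.4 to 52.6). The means and the shares thus give no single direction after thinning. In TMRElo the ratio was 0.0732 (0.0572 to 0.0925), at 585 CPM in 117 low-ribosomal and 8000 CPM in 16 high-ribosomal barcodes, and the pair of barcodes named above was among those 16.

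**Figure D5:**
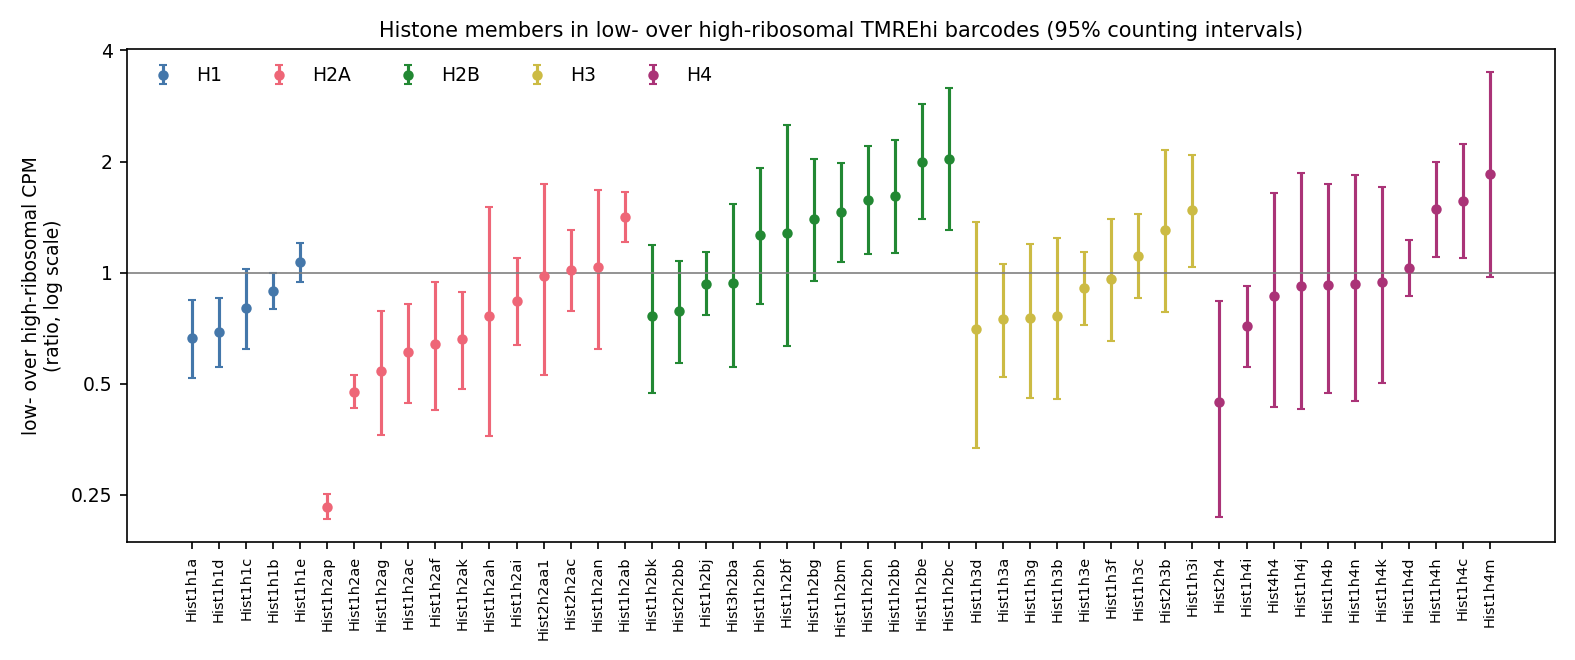
Ratio of the level in low- over high-ribosomal TMREhi barcodes (vertical, log scale) for the 49 members with at least 20 UMIs, grouped by class and ordered by ratio within it, with exact 95% counting intervals. Hist1h2ap, at 0.232, lies apart from the others, and the H2B genes reach 2.03.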

How the data were processed

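The authors deposited unnormalised UMI counts as 1 matrix for each library, prepared with the 10x Chromium 5′ kit per the labels' protocols. Reads were processed with Cell Ranger 3.0 on mm10 per the submitters' processing notes, and the matrices name Cell Ranger 3.0.2 per the file headers. The sources used here do not give the annotation release, how cells were called or how reads that match several genes were treated.

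UMI counts were summed over barcodes of a set and divided by the set's total (CPM). Ratios of sums carry exact conditional 95% intervals, CPM exact Poisson and shares exact binomial (Clopper-Pearson) intervals, all for counting error only. With 1 library per group no p-value was computed. A member was compared at a mean of 10 CPM over both sets, with log2(CPM + 1) for medians and 2-fold counts. Members were named at 20 UMIs over both retained libraries, and of each other list genes among the 6 with the highest mean CPM. Hist1h2ao and the members at 0 fall outside this rule and were named after their values were seen. Against 0 UMIs the ratio was taken to a floor of 3 UMIs. Barcodes were thinned to 2000 UMIs, or 1000, with seed 1. Scrublet called 5 TMREhi and 9 TMRElo barcodes as doublets. They were kept, with their removal as an alternative.

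The members and the gene lists were chosen with earlier results of these data known. Alternatives covered barcode filters, single barcodes and members left out, scaling, thresholds and thinning. The sums and intervals were tested on simulated counts with counting error only, and the thinning on the TMREhi counts themselves. Stem-loops and shared 50-base stretches were searched in GENCODE vM21 transcripts (31011 of 31053 identifiers matched), and promoters were taken from RefSeq. The tools were scanpy 1.11.5 (with its Scrublet), scipy 1.17.1, pandas 2.3.3, numpy 2.4.6 and matplotlib 3.10.9, under Python 3.11.15.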

Additional observations from a re-analysis of the deposited data

Results flagged for a closer look

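Barcodes with fewer than 500 genes were used in no comparison, and both libraries held histone UMIs there above the level of 3 UMIs. In TMREhi the 177 such barcodes held 213 histone UMIs, or 1853 CPM, against a level of 26.1 CPM for 3 UMIs. In TMRElo the 63 such barcodes held 12 histone UMIs, or 467 CPM, against 116.8 CPM for 3 UMIs.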

How the results depend on the processing

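No paired analysis was possible because each group has 1 library and no result comes from a test. Depth limits single members in TMRElo, where 3 UMIs stand for 28.5 CPM, against 1.03 CPM in TMREhi.

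The retained TMREhi over TMRElo ratio of 0.891 turned to 1.60 over all barcodes, 1.88 without the barcode with most histone UMIs in each library, 11.9 without the 5 deepest barcodes, 13.6 without the 2 barcodes with most histone UMIs and 1.04 without Hist1h2ap. It was 0.545 with at least 1000 genes and at most 5% mitochondrial UMIs, 0.990 when scaled outside mitochondrial and ribosomal protein genes (a log2 shift of 0.15) and 0.978 without Hist1h2ap and Hist1h2ae. Members higher in TMREhi, 24 of 45, were 9 of 16 at a mean of 50 CPM (42.7% of all genes), 37 of 61 with no filter (55.1%), 13 of 47 with the stricter barcode filter (41.0%) and 37 of 38 without the 2 barcodes (38.0%). Also turned were, over all barcodes, H1 (1.43), H2A (1.43), Hist1h2ap (1.22) and Hist1h1a (1.04). With the stricter filter it was Hist1h2ae (0.830). Without the barcode with most histone UMIs they were H1 (1.90), H2A (1.61), Hist1h4k (1.24), Hist1h2ap (1.45), Hist1h1d (1.73) and Hist1h1a (1.56). Without the 5 deepest barcodes they were H1 (5.53), H2A (19.0), Hist1h2ap (19.6) and Hist1h1d (2.44). Without Hist1h2ap it was H2A (1.02). Without the 2 barcodes they were H1 (6.40), H2A (20.1), Hist2h2aa1 (1.07), Hist1h2ap (21.9), Hist1h1d (3.38) and Hist1h2ac (5.66).

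The cycling over non-cycling ratio of 13.8 kept its direction under all 11 alternatives. It was 7.94 and 5.91 after thinning to 2000 and 1000 UMIs, 7.83 with Mki67 alone, 10.0 with the S list as the rule, 9.09 over all barcodes with 500 genes, 9.26 without Hist1h2ap and 8.001 without Hist1h2ap and Hist1h2ae.

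The low- over high-ribosomal ratio of 0.613 was 0.641 at a 10% and 0.593 at a 20% limit, 0.721 in retained barcodes, 0.532 without Rag1 barcodes, 0.522 when scaled outside mitochondrial and ribosomal protein genes (a log2 shift of -0.23), 0.875 without Hist1h2ap and 0.978 without Hist1h2ap and Hist1h2ae. Without cycling barcodes it turned to 2.10, with H1 (2.13), H2A (2.39), Hist1h1b (1.84), Hist1h2ap (2.23), Hist1h4i (1.20), Hist1h1d (7.20) and Hist1h2ae (2.52). In retained barcodes H1 (1.06), Hist1h1d (1.77), Hist1h2be (0.791) and Hist1h2ac (1.07) turned.

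The low-ribosomal TMREhi over TMRElo ratio of 6.05 was 1.10 at a 20% limit, 7.79 in retained barcodes, 3.41 without cycling barcodes and 8.98 without the 2 low-ribosomal barcodes with most histone UMIs in each library. At 20% H2A (0.751), Hist1h2ak (0.329), Hist1h2ap (0.427), Hist1h1d (0.506) and Hist1h1a (0.666) turned. Scaling outside mitochondrial and ribosomal protein genes shifted it by 0.11 on the log2 scale. The alternatives of this ratio, those without the 2 barcodes and those without Hist1h2ap and Hist1h2ae were chosen after seeing the data. Members left with under 20 UMIs by an alternative have no value under it. Causes not shown by the alternative's own construction were not tested.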
